A study of Homo sapiens with 9 samples.

Results

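Contractile actin cytoskeleton genes that are known targets of serum response factor (SRF) were followed in MDA-MB-231 cells, a human breast adenocarcinoma line of triple-negative, mesenchymal type. The members were taken by symbol, with earlier results of these data known: ACTA2, TAGLN, CNN1, CNN2, TPM1, TPM2, TPM4, MYL9, VCL and FLNA. Counts and medians of the members set beside those of all genes are therefore a description. All 10 were found among the 26364 genes counted in each of the 9 libraries, and all 10 were among the 14738 genes with enough reads to test. Of these, 9 passed that filter in all 9 libraries. CNN1 passed through the MEL-18 groups alone, where 4 libraries reached the minimum level and 0 vector libraries did, so it had to be higher there. Its values against the vector are a description, and the counts of members are also given without it.

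The cells stably carried 1 of 3 lentiviral constructs in the pLVX backbone: the empty vector, the wild-type protein (MEL-18 WT), or MEL-18 T334A, a form that cannot be phosphorylated at the mutated threonine. MEL-18, the product of PCGF2, is a RING finger subunit of Polycomb repressive complex 1. Each group had 3 biological replicates of poly(A)-selected RNA, all from the same parental line, grown for 48 h in DMEM with 10% FBS. Nothing in the labels says that the replicates came from separate transductions, so a construct and the line that carries it cannot be told apart, and the p-values here reflect only how far these cultures differ from each other. The 2 comparisons with the vector share the 3 vector libraries, so their values are given side by side without a measure of how alike they are.

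SRF binds DNA at the CArG box and works with partner proteins of 2 kinds. Myocardin-related transcription factors (MRTFA, MRTFB and, in muscle, myocardin) are held in the cytoplasm by unpolymerised actin and enter the nucleus when actin polymerises; with SRF they drive cytoskeletal and contractile genes. Ternary complex factors respond instead to mitogen-activated kinase signalling and drive immediate early genes such as FOS. The genes followed here encode the working parts of actin bundles: a smooth muscle actin (ACTA2), proteins of the calponin family that coat filaments (TAGLN, CNN1, CNN2), tropomyosins that lie along the filament (TPM1, TPM2, TPM4), a regulatory light chain of myosin (MYL9), and proteins that anchor or crosslink filaments (VCL, FLNA).

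Promoter sequence was read from RefSeq windows (GRCh38.p14) of 300 bases, from 250 bases before to 50 bases after an annotated start. Entries were present for 8 of the 10 members, with 12 windows in all; TAGLN and MYL9 had none. A complete CArG box (CC, then 6 bases that are each A or T, then GG; the pattern reads the same on both strands) was found in windows of 3 members, CNN2, TPM4 and FLNA. Over all 35116 windows the share was 1.29%, and over all 27305 genes with a window 1.60%. ACTA2 held 2 sites with 1 of the 6 middle bases departing from A or T, a form that 9.88% of genes held when complete boxes are included. Both ACTA2 sites lay in 1 of its 2 windows, and the TPM4 box lay in 1 of its 3 windows. The 250 bases before the start are printed for these 4 members because their boxes can be set beside the read counts; capitals mark the complete box, or in ACTA2 the sites with 1 departure.
ACTA2, chr10:88952774-88953023, minus strand: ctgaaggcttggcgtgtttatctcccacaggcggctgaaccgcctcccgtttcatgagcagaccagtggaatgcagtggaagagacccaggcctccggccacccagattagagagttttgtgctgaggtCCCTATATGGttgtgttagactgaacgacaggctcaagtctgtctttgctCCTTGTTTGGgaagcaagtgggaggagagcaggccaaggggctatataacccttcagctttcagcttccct
CNN2, chr19:1026358-1026607, plus strand: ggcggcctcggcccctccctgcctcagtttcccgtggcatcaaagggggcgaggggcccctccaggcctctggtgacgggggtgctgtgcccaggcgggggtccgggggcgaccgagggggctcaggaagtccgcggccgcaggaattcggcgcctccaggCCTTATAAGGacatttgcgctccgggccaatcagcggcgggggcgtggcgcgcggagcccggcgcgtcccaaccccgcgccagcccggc
TPM4, chr19:16067288-16067537, plus strand: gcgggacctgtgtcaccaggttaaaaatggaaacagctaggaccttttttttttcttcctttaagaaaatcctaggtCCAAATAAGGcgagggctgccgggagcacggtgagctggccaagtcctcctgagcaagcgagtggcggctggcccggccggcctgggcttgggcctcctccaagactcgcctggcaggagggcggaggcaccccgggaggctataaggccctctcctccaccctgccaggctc
FLNA, chrX:154374635-154374884, minus strand: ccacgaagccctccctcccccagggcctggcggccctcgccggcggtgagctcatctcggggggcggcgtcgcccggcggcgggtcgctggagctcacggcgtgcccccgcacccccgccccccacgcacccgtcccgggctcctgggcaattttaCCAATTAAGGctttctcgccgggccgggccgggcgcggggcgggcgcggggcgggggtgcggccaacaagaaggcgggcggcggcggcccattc
The last base of the box lay 80 bases before the start in CNN2, 164 in TPM4 and 85 in FLNA, and the ACTA2 sites ended 112 and 62 bases before it. Neither form was found in the windows of CNN1, TPM1, TPM2 and VCL, which says only that these letters are not in those windows.

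The libraries held between 31643722 and 37005302 counts, and the 10 genes together took 0.386% to 0.411% of them. PCGF2 checked which libraries carried a MEL-18 construct. It stood at 22.2, 23.8 and 22.3 CPM (each gene's count over the TMM-scaled library size, in the usual unit) with the vector. With MEL-18 WT it stood at 1292, 1287 and 1279, and with MEL-18 T334A at 1420, 1451 and 1389. Its level was thus also higher with T334A than with WT, by 0.14 ± 0.03 on the log2 scale (SE, edgeR adjusted p = 1.48e-04). Gene counts do not show the mutated base, so the WT and T334A labels were not checked against each other. VIM (1447 to 1545 CPM) and KRT18 (254 to 310 CPM) marked a mesenchymal carcinoma line, while the epithelial cadherin CDH1 had 9, 15 and 8 counts summed over the vector, WT and T334A libraries. In RNA from whole cultures, fewer cells of a type and less RNA per cell cannot be told apart. The 6 smooth muscle markers summed to 2.01 to 2.56 CPM with the vector, 1.99 to 2.66 with WT and 2.28 to 2.98 with T334A; 3 were tested and 0 were called. The 6 fibroblast markers summed to 15.4 to 16.2, 18.9 to 21.4 and 19.2 to 25.8 CPM; 3 were tested. COL1A1 and PDGFRB were higher in both MEL-18 groups than with the vector, and COL3A1, at -0.25 with WT and -0.44 with T334A on the log2 scale, was not called (edgeR adjusted p = 0.635 and 0.327). DCN, with 0, 1 and 0 counts in the 3 groups, was not tested. The 3 endothelial markers summed to 1.98 to 2.41 CPM with the vector, 1.14 to 1.48 with WT and 0.592 to 0.962 with T334A. PECAM1 and CDH5 were lower in both MEL-18 groups than with the vector, on 93, 50 and 34 counts and 93, 64 and 21 counts in the 3 groups. VWF, at -0.22 with WT and -0.07 with T334A, was not called (edgeR adjusted p = 0.759 and 0.905). The 5 myoepithelial markers summed to 2.88 to 3.45, 2.24 to 3.37 and 2.03 to 2.74 CPM. Of the 2 tested, TP63 was lower with WT (-0.85) and with T334A (-0.84) than with the vector. OXTR, the other, went the opposite way, at 0.36 and 0.32, and was not called (edgeR adjusted p = 0.156 and 0.165). The breast epithelial markers with VIM summed to 2134 to 2164, 2208 to 2241 and 2181 to 2265 CPM, most of it VIM. Of the 5 tested, EPCAM (0.43 with WT, 0.71 with T334A) and KRT19 (0.29 and 0.42) were higher than with the vector. With T334A alone VIM was higher (0.09) and KRT18 lower (-0.24), and KRT8 was not called against the vector. The hormone receptor genes ESR1 and PGR with ERBB2 summed to 63.0 to 65.7, 68.4 to 69.2 and 69.5 to 70.7 CPM. Nearly all of this was ERBB2 (means 63.8, 68.6 and 69.9 CPM). ESR1 had 6, 7 and 6 counts in the 3 groups and PGR 3, 3 and 3, and neither was tested. The part of all these markers in the results below was not tested. No marker on any of the lists was at 0 in all 9 libraries.

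Per kilobase of annotated exon, the members spanned a wide range of levels in the same order in all 3 groups. TPM4, a non-muscle tropomyosin, was highest at 287 CPM per kb with the vector, followed by the crosslinker FLNA at 263. VCL (83.0) and CNN2 (74.0) came next, then TPM1 (30.5), MYL9 (18.5) and TPM2 (10.4). The genes best known from differentiated smooth muscle were lowest: TAGLN at 2.32, ACTA2 at 0.834 and CNN1 at 0.0377 CPM per kb. For scale, the cytoplasmic actin gene ACTB stood at 2273 CPM per kb, and CNN2 exceeded its smooth muscle relative CNN1 by 1962-fold with the vector, where CNN1 had 7 counts in all, by 556-fold with WT and by 394-fold with T334A. TPM4 exceeded TPM1 by 9.40-fold with the vector, 7.68-fold with WT and 6.79-fold with T334A. No neighbours in this order were tested against each other.

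**Figure D1:**
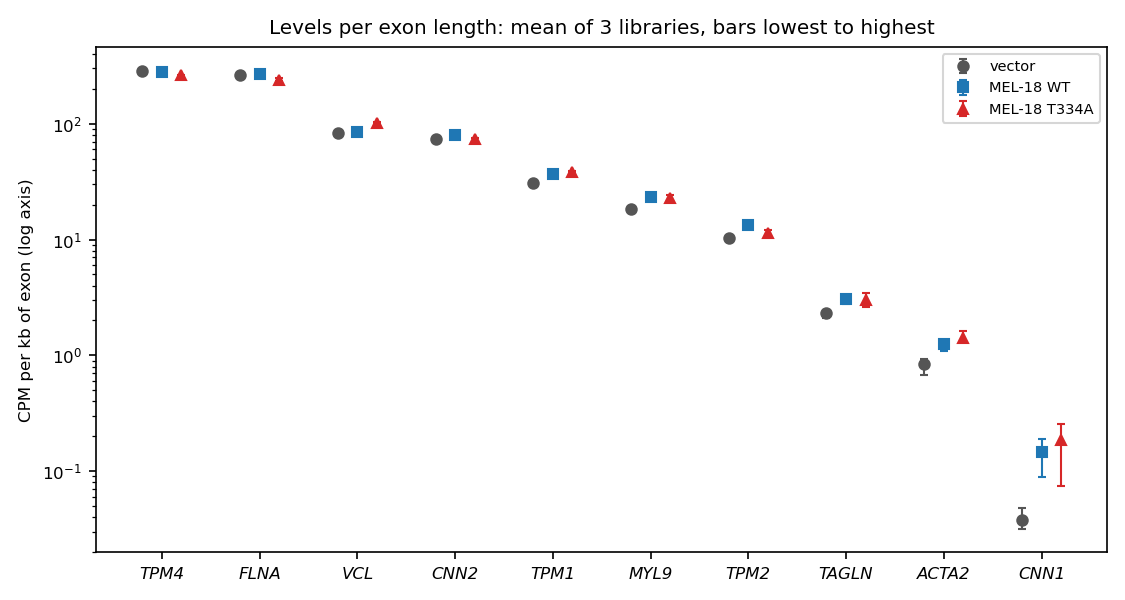
Level of each member in CPM per kilobase of annotated exon (log axis), as the mean of 3 libraries per group (colours and symbols as in the legend); bars run from the lowest to the highest library. The order of the genes is the same in the 3 groups, from TPM4 (287 with the vector) down to CNN1 (0.0377 with the vector).

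With MEL-18 WT, 7 of the 10 genes were higher than with the vector and 0 were lower. Those 7 were the smooth muscle actin ACTA2, the calponin family genes TAGLN, CNN1 and CNN2, the tropomyosins TPM1 and TPM2, and the myosin light chain MYL9. Values for TPM4, VCL and FLNA, the 3 most abundant members per length, did not pass the test. Across all genes tested, 28.8% were called in this comparison, 14.4% higher and 14.4% lower (edgeR quasi-likelihood test, Benjamini-Hochberg adjusted p below 0.05). The median log2 change of the 10 was 0.29, against -0.00165 over all genes tested; without CNN1 it was 0.26, with 6 of 9 higher. The groups did not overlap for 7 of the 10, or 6 of the 9 without CNN1, against 42.7% of all genes tested. When libraries were scaled by their totals instead of TMM, 60.1% of all calls were higher rather than 50.1%, and the members' count stayed at 7 higher and 0 lower (6 and 0 without CNN1). DESeq2 called 5 higher, CNN1 not among them, and edgeR called 4 of the 9 others without WT replicate 2.

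With MEL-18 T334A, 6 of the 10 were higher than with the vector and 2 were lower. ACTA2, TAGLN, CNN1, TPM1, MYL9 and the focal adhesion gene VCL rose, and TPM4 and FLNA fell; values for CNN2 and TPM2 did not pass the test. In this comparison 45.9% of all genes tested were called, 23.4% higher and 22.5% lower, so 2 lower members of 10 is near the background share. The median log2 change was 0.30 against -0.00220 over all genes, and without CNN1 it was 0.29, with 5 of 9 higher and 2 lower. Groups did not overlap for 8 of the 10, or 7 of the 9 without CNN1, against 51.5% of all genes. Library totals raised the share of higher calls among all calls from 51.1% to 64.0% and the members' count to 7 higher and 2 lower (6 and 2 without CNN1).

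**Figure D2:**
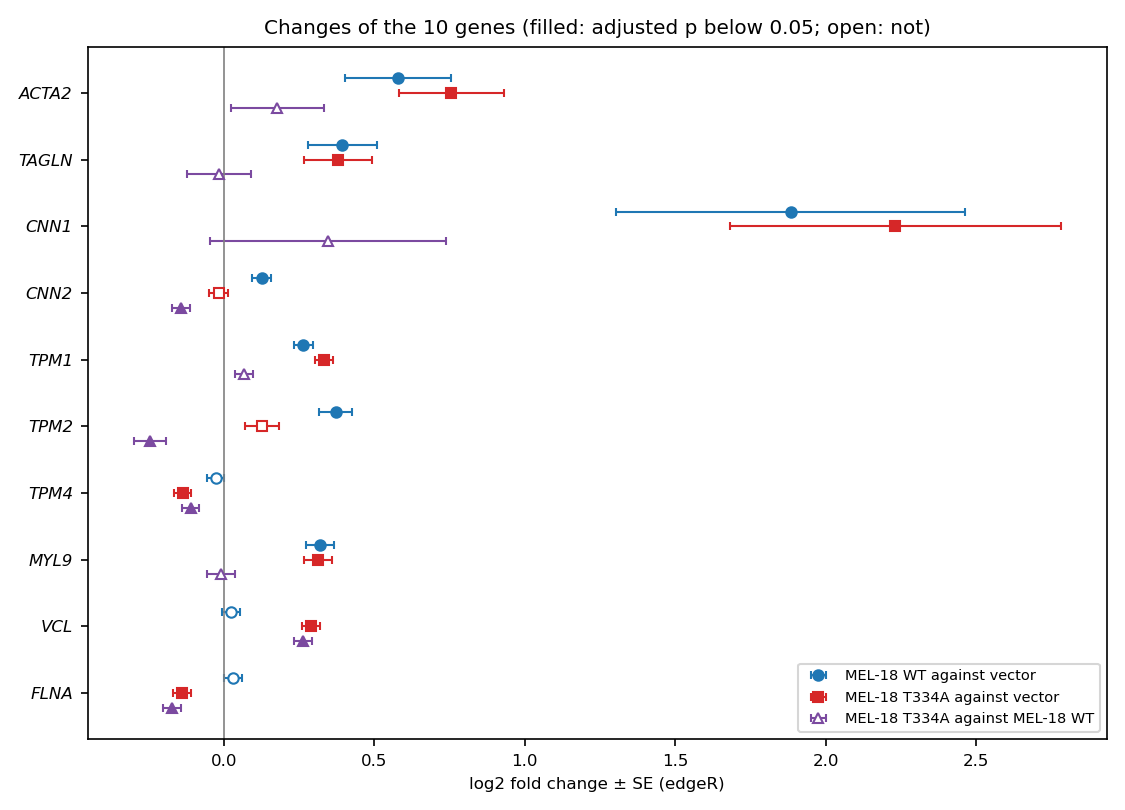
Log2 fold change of each member (points, filled where called) with its standard error on each side (bars) in the 3 comparisons, from the fit over all 9 libraries. CNN1 and ACTA2 have the widest bars. VCL lies at 0.03 with WT and at 0.29 with T334A, both against the vector.

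Set directly against MEL-18 WT, MEL-18 T334A had 1 member higher (VCL) and 4 lower (CNN2, TPM2, TPM4, FLNA). The share of all genes called was 40.9%, with 21.0% higher and 20% lower, so 5 called of 10 is close to the background share. The median log2 difference was -0.01, against -0.00326 over all genes, and it was -0.01 again without CNN1. Groups did not overlap for 6 of the 10, or 6 of the 9 without CNN1, against 48.7% of all genes. Library totals moved the share of higher calls from 51.2% to 58.4% and added TPM1 to the higher members. The 3 members with a complete CArG box in the sequences printed above, CNN2, TPM4 and FLNA, were all among the 4 lower. In TPM4 the box lay in 1 of its 3 windows, and TPM2, the other lower member, had no box in its 2 windows. ACTA2, with 2 sites of 1 departure, was not called (0.18, edgeR adjusted p = 0.382), and TAGLN and MYL9 had no window. With T334A against the vector, TPM4 and FLNA were lower but CNN2 was not called (-0.02, edgeR adjusted p = 0.681). The overlap of complete boxes and lower calls was seen after the values were known and was not tested.

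**Figure D3:**
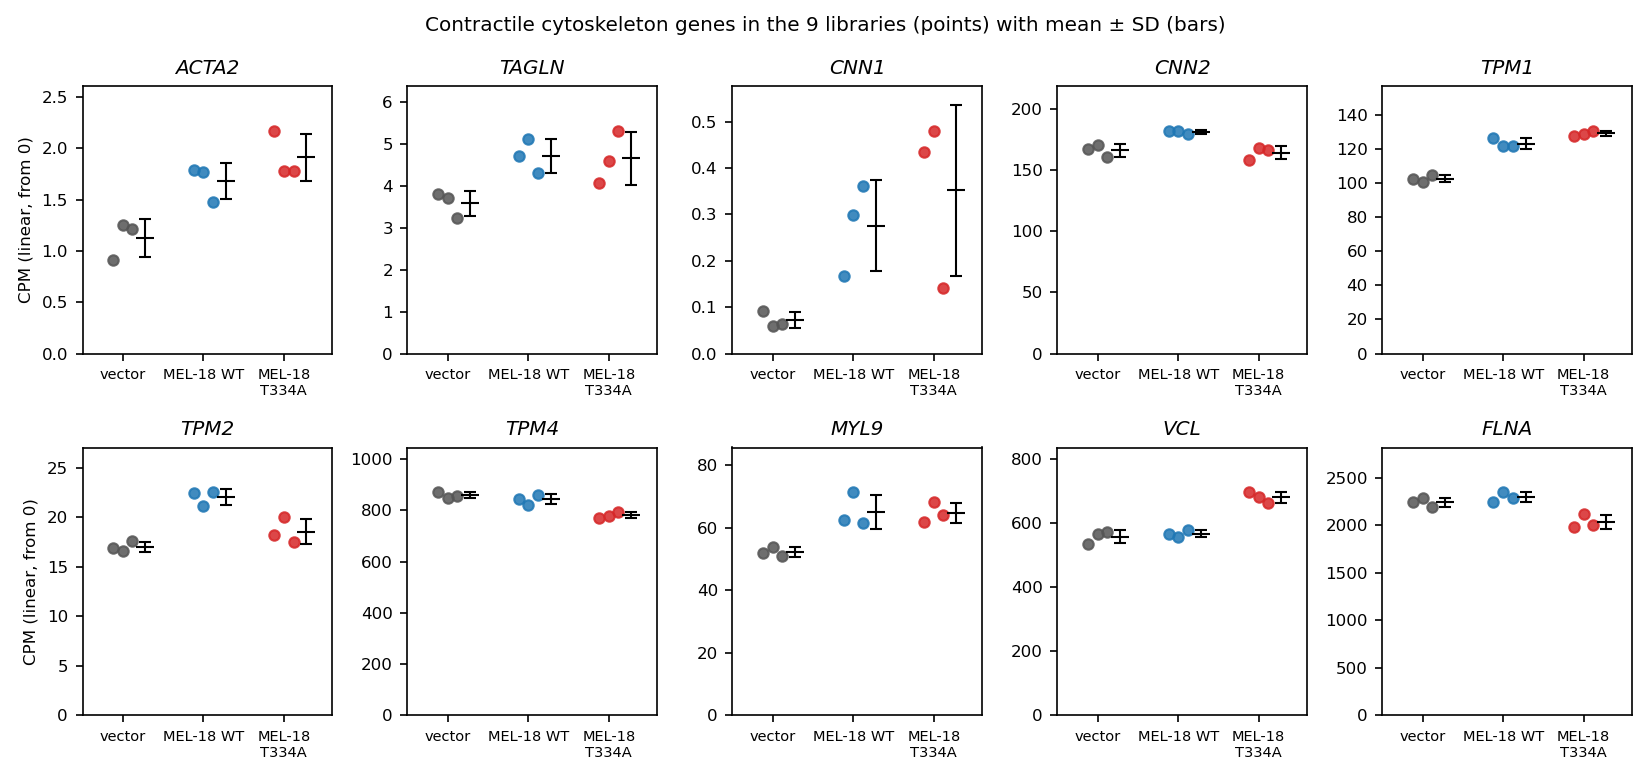
CPM of each member in the 3 libraries of each group (points) with the group mean and SD (bars), each panel on its own linear axis from 0. ACTA2, TAGLN, TPM1 and MYL9 are higher in all 6 MEL-18 libraries than in the 3 vector libraries; VCL is higher in the T334A libraries alone.

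ACTA2 encodes the alpha smooth muscle actin that is used as the mark of myofibroblasts. It stood at 0.915, 1.25 and 1.21 CPM with the vector, at 1.79, 1.76 and 1.47 with MEL-18 WT, and at 2.17, 1.78 and 1.78 with MEL-18 T334A. All 6 MEL-18 libraries lay above the 3 vector libraries, and the WT and T334A libraries overlapped. The log2 change was 0.58 ± 0.18 with WT (SE, edgeR adjusted p = 0.0141) and 0.76 ± 0.17 with T334A (adjusted p = 7.44e-04). These rest on few reads: 110 vector counts in all, against 178 with WT and 196 with T334A, which gives ratios of 1.495 (exact 95% interval 1.17 to 1.91) and 1.69 (1.33 to 2.16) from counting error alone. The WT call was lost with DESeq2 (adjusted p = 0.0842) and in edgeR without vector replicate 1 (0.0910), WT replicate 1 (0.0562) or WT replicate 2 (0.0530).

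ACTA2 shares part of its RefSeq span with FAS, a death receptor gene, and with its antisense gene ACTA2-AS1. FAS was higher by 0.61 ± 0.07 with WT (edgeR adjusted p = 2.64e-07) and by 0.57 ± 0.07 with T334A (adjusted p = 4.35e-07), from 6.96 CPM with the vector to 10.6 and 10.3. None of the 3 tests called ACTA2-AS1. Whether strand was used in the counting is not given in the sources used here, so reads of these overlapping genes may not be fully separated, and ACTA2 also resembles the other actin genes closely; its values are uncertain to that extent.

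TAGLN encodes transgelin (SM22 alpha), an early marker of smooth muscle that binds and stabilises actin filaments. Its levels were 3.81, 3.72 and 3.25 CPM with the vector, 4.73, 5.13 and 4.30 with MEL-18 WT, and 4.06, 4.61 and 5.33 with MEL-18 T334A. Every MEL-18 library was above every vector library, and the 2 MEL-18 groups overlapped. The log2 changes were 0.39 ± 0.11 with WT (edgeR adjusted p = 0.00928) and 0.38 ± 0.11 with T334A (adjusted p = 0.00785). The WT call did not hold without vector replicate 3 (adjusted p = 0.0528) or WT replicate 2 (0.0623), nor the T334A call without T334A replicate 3 (0.0602). PCSK7, a protease gene that overlaps TAGLN, was not called in any comparison. LOC100652768, which also overlaps TAGLN and was counted, was not examined.

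CNN1, the basic calponin of smooth muscle, was close to the limit of detection. With the vector it had 3, 2 and 2 counts, with MEL-18 WT 6, 11 and 12, and with MEL-18 T334A 14, 17 and 5. The vector libraries held the lowest counts, and T334A replicate 3 lay below every WT library. Group sums were 7, 29 and 36 counts, so the ratio to the vector was 3.83 with WT (exact 95% interval 1.64 to 10.4) and 4.88 with T334A (2.14 to 13.0). These intervals cover counting error only. CNN1 entered the test through its level in the MEL-18 libraries alone, which fixes the direction against the vector, so its calls there support nothing further.

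CNN2, the calponin of non-muscle cells, was far more abundant and rose in 1 comparison only. It stood at 166.8, 170.4 and 160.2 CPM with the vector, at 182.0, 181.4 and 179.4 with MEL-18 WT, and at 157.8, 167.5 and 166.1 with MEL-18 T334A. The 3 WT libraries were the highest of the 9 and the vector and T334A libraries overlapped. CNN2 was higher with WT than with the vector by 0.13 ± 0.03 (edgeR adjusted p = 0.00236) and lower with T334A than with WT, by -0.14 ± 0.03 (adjusted p = 4.49e-04). With T334A against the vector its log2 value was -0.02 ± 0.03 (adjusted p = 0.681), which became 0.02 with library totals.

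Tropomyosins are coiled-coil dimers that run along actin filaments and set which other proteins can bind. TPM1 stood at 102.5, 100.5 and 104.4 CPM with the vector, at 126.5, 121.4 and 121.4 with MEL-18 WT, and at 127.6, 128.8 and 130.7 with MEL-18 T334A. The 3 groups did not overlap. The increases were 0.26 ± 0.03 with WT (edgeR adjusted p = 1.41e-07) and 0.33 ± 0.03 with T334A (adjusted p = 1.06e-09), or 20.2% and 26.0%. Between T334A and WT the log2 difference was 0.07 ± 0.03 (adjusted p = 0.0685), with a 95% interval of 0.01 to 0.13; it passed with library totals (adjusted p = 0.0222) and without WT replicate 1 (0.0453).

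TPM2, the beta tropomyosin, was highest with the wild-type protein. Its levels were 16.9, 16.6 and 17.6 CPM with the vector, 22.4, 21.1 and 22.5 with MEL-18 WT, and 18.15, 19.97 and 17.53 with MEL-18 T334A. The WT libraries stood above the other 6, and 1 T334A library lay within the vector range. TPM2 rose by 0.37 ± 0.05 with WT (edgeR adjusted p = 6.58e-06) and was lower with T334A than with WT, by -0.25 ± 0.05 (adjusted p = 5.69e-04). Against the vector, T334A gave 0.13 ± 0.06 (adjusted p = 0.0684), which passed with library totals (0.0229) and without T334A replicate 3 (0.0176).

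TPM4, a tropomyosin of non-muscle stress fibres, was lowest with T334A. It stood at 871.6, 849.3 and 857.4 CPM with the vector, at 845.9, 822.7 and 861.8 with MEL-18 WT, and at 772.0, 778.3 and 795.1 with MEL-18 T334A. The 3 T334A libraries were below the other 6, which overlapped. TPM4 differed by -0.14 ± 0.03 with T334A against the vector (edgeR adjusted p = 1.99e-04) and by -0.11 ± 0.03 against WT (adjusted p = 0.00220), or -9.03% and -7.31%. With WT against the vector the log2 value was -0.03 ± 0.03 (adjusted p = 0.512).

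MYL9 encodes the regulatory light chain that myosin light chain kinase phosphorylates to start contraction in smooth muscle and non-muscle cells. It stood at 51.8, 53.9 and 50.9 CPM with the vector, at 62.6, 71.5 and 61.6 with MEL-18 WT, and at 62.0, 68.4 and 64.2 with MEL-18 T334A. All 6 MEL-18 libraries were above the vector libraries, and the 2 MEL-18 groups covered much the same range. The increases were 0.32 ± 0.05 with WT (edgeR adjusted p = 5.56e-06) and 0.31 ± 0.05 with T334A (adjusted p = 4.21e-06). DLGAP4-AS1, an antisense gene whose span overlaps MYL9, stood at 0.226, 0.220 and 0.182 CPM in the vector, WT and T334A groups and was not called.

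VCL encodes vinculin, which links actin to integrin and cadherin adhesions. It stood at 532.0, 564.2 and 571.1 CPM with the vector, at 565.7, 554.1 and 577.2 with MEL-18 WT, and at 695.3, 680.8 and 661.3 with MEL-18 T334A. The T334A libraries were above the other 6, and the vector and WT libraries overlapped. VCL was higher with T334A by 0.29 ± 0.03 against the vector (edgeR adjusted p = 1.36e-08) and by 0.26 ± 0.03 against WT (adjusted p = 9.61e-08). With WT against the vector it was 0.03 ± 0.03 (adjusted p = 0.586), which turned to -0.00330 without vector replicate 1. The chromosomal neighbours of VCL were higher with T334A as well: the median log2 change of the 20 tested genes on each side was -0.03 with WT and 0.23 with T334A against the vector, and 0.23 between the MEL-18 groups. VCL differed from that median by 0.06, 0.06 and 0.04. AP3M1, an adaptor complex gene whose span overlaps VCL, was lower with WT (-0.13, edgeR adjusted p = 0.00121), higher with T334A (0.13, 7.44e-04) and higher with T334A than with WT (0.26, 7.75e-08). The part of the region in the VCL values was not tested.

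FLNA encodes filamin A, which crosslinks actin filaments and ties them to membrane receptors. It stood at 2243, 2287 and 2192 CPM with the vector, at 2243, 2347 and 2280 with MEL-18 WT, and at 1981, 2119 and 2004 with MEL-18 T334A. The 3 T334A libraries were the lowest of the 9. FLNA differed by -0.14 ± 0.03 with T334A against the vector (edgeR adjusted p = 4.63e-04) and by -0.17 ± 0.03 against WT (adjusted p = 5.69e-05), or -9.20% and -11.2%. With WT against the vector its log2 value was 0.03 ± 0.03 (adjusted p = 0.489).

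For 5 members the difference between T334A and WT did not pass the test, and the intervals show how large a difference these data allow. The 95% interval on the log2 scale was -0.10 to 0.08 for MYL9 and -0.23 to 0.20 for TAGLN. It was -0.14 to 0.50 for ACTA2 and -0.46 to 1.15 for CNN1, so a sizeable difference in either direction is not excluded for CNN1. The log2 values of TAGLN and MYL9 in this comparison (-0.01 for each) changed sign with library totals. No call in the direct comparison, higher or lower, was lost under any of the 13 alternatives run for it.

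**Figure D4:**
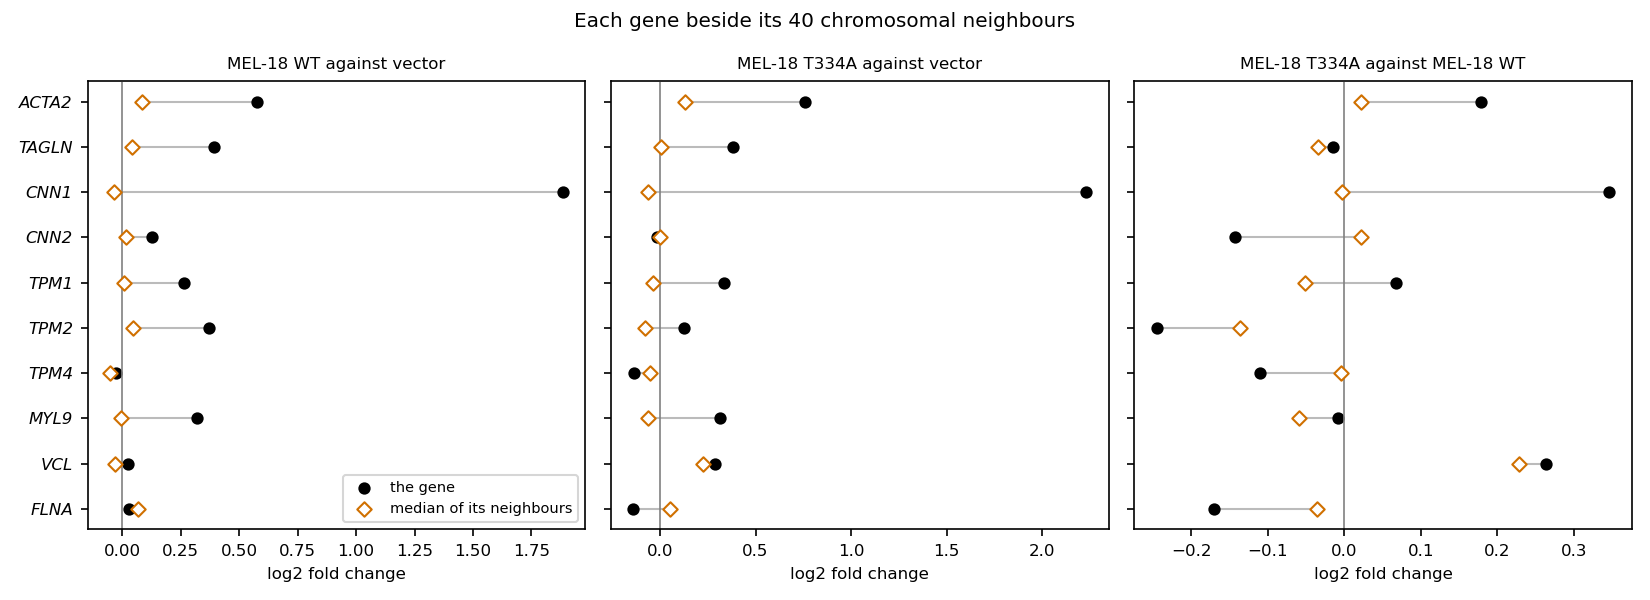
Log2 fold change of each member beside the median of its 40 tested chromosomal neighbours (20 on each side, RefSeq order) in the 3 comparisons, each panel on its own axis. The VCL neighbours are at 0.23 in both T334A comparisons; most other neighbour medians lie near 0.

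For the other 9 members the neighbour medians were between -0.05 and 0.09 with WT against the vector. With T334A against the vector they ran from -0.08 at TPM2 to 0.13 at ACTA2, and between the MEL-18 groups from -0.14 at TPM2 to 0.02. At TPM2, on chromosome 9, the member and its neighbours were both lower with T334A than with WT (-0.25 and -0.14). ACTA2, on chromosome 10 as is VCL, rose by 0.76 with T334A beside a neighbour median of 0.13.

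SRF itself was highest with the wild-type protein. It stood at 87.1 ± 0.95 CPM with the vector (SD, n = 3), 94.99 ± 1.82 with MEL-18 WT and 84.8 ± 1.64 with MEL-18 T334A. It was higher with WT by 0.13 ± 0.03 (edgeR adjusted p = 0.00268), lower with T334A than with WT by -0.16 ± 0.03 (adjusted p = 1.14e-04), and at -0.04 with T334A against the vector (adjusted p = 0.338; 0.000499 on the log2 scale with library totals). MRTFA, counted under its older symbol MKL1, was lower with WT by -0.14 ± 0.05 (adjusted p = 0.0227), and higher with T334A than with WT by 0.22 ± 0.04 (adjusted p = 2.40e-04). The first of these calls was lost with library totals (adjusted p = 0.0575), with DESeq2 (0.0806) and in edgeR without vector replicate 2 (0.213), WT replicate 1 (0.0906) or WT replicate 3 (0.0601), and with T334A against the vector MRTFA passed with library totals (0.0290) or without vector replicate 2 (0.0238) but not otherwise (0.127). MRTFB, counted as MKL2, was not called in any comparison, and myocardin (MYOCD) had 0, 1 and 2 counts in the 3 groups and was not tested.

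Other contractile and actin-binding genes numbered 36, of which 32 were tested. With WT 10 were higher and 10 lower, with T334A 14 and 7, and with T334A against WT 16 and 5, with medians of -0.01, 0.07 and 0.10; library totals left 4 lower with T334A. Over all genes tested the shares called higher and lower were 14.4% and 14.4%, 23.4% and 22.5%, and 21.0% and 20%, so 7 of 32 lower with T334A against the vector is near the background share. MYLK, the myosin light chain kinase that acts on the MYL9 product, stood at 25.2 ± 0.45 CPM with the vector (SD, n = 3), 31.7 ± 0.64 with WT and 49.0 ± 3.79 with T334A. It rose by 0.33 ± 0.05 with WT (edgeR adjusted p = 1.18e-05) and by 0.96 ± 0.05 with T334A (adjusted p = 8.03e-15), and was higher with T334A than with WT by 0.63 ± 0.05 (adjusted p = 2.55e-11). TAGLN2, a non-muscle relative of TAGLN, was lower with WT (-0.38 ± 0.03, adjusted p = 1.26e-10). FHL1, a LIM-domain gene, was lower with WT (-0.32 ± 0.10, adjusted p = 0.0129) and higher with T334A (0.31 ± 0.09, adjusted p = 0.00651); the WT call was lost without vector replicate 3 (0.0669) or WT replicate 3 (0.101). Its relative FHL2, a cofactor that binds SRF, was higher with WT (0.32 ± 0.04). The filamin gene FLNC and the myosin light chain gene MYL12A were higher with T334A than with the vector (0.35 and 0.33). The cytoplasmic actin gene ACTG1 was lower with T334A than with WT (-0.43 ± 0.03). Against the vector ACTG1 was higher with WT (0.20) and lower with T334A (-0.23). ACTB, the other cytoplasmic actin gene, went the opposite way between the MEL-18 groups, higher with T334A than with WT (0.15). Against the vector ACTB was lower with WT (-0.17) and not called with T334A (-0.02).

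Most tested immediate early genes of the ternary complex factor branch were lower with T334A. Of 10 on the list, 8 were tested: 1 was higher and 4 lower with WT, 1 and 6 with T334A, and 1 and 7 with T334A against WT, with medians of -0.13, -0.45 and -0.34. Over all genes tested 14.4%, 22.5% and 20% were called lower in these comparisons. With WT the 1 higher gene, NR4A1, was lost with DESeq2 and without any 1 of vector replicates 1, 2 and 3 and WT replicates 2 and 3, and the lower count was 2 without vector replicate 1 or WT replicate 3. FOS stood at 59.1 ± 4.96 CPM with the vector (SD, n = 3), 52.5 ± 1.76 with WT and 30.6 ± 2.02 with T334A. It was lower with T334A than with the vector by -0.95 ± 0.05 (edgeR adjusted p = 3.44e-14) and than with WT by -0.78 ± 0.05 (adjusted p = 3.57e-12). FOSB, its close relative, was lower by -2.75 ± 0.22 with T334A (edgeR adjusted p = 1.18e-10) and by -0.99 ± 0.17 with WT. The FOSB libraries spread widely with the vector, from 6.21 to 13.8 CPM, against 4.15 to 5.54 with WT and 1.13 to 1.58 with T334A. EGR1, a zinc finger factor, was lower by -0.69 ± 0.05 with T334A. ARC went the other way, higher by 0.58 ± 0.10 with T334A than with the vector (adjusted p = 1.55e-05). 

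**Figure D5:**
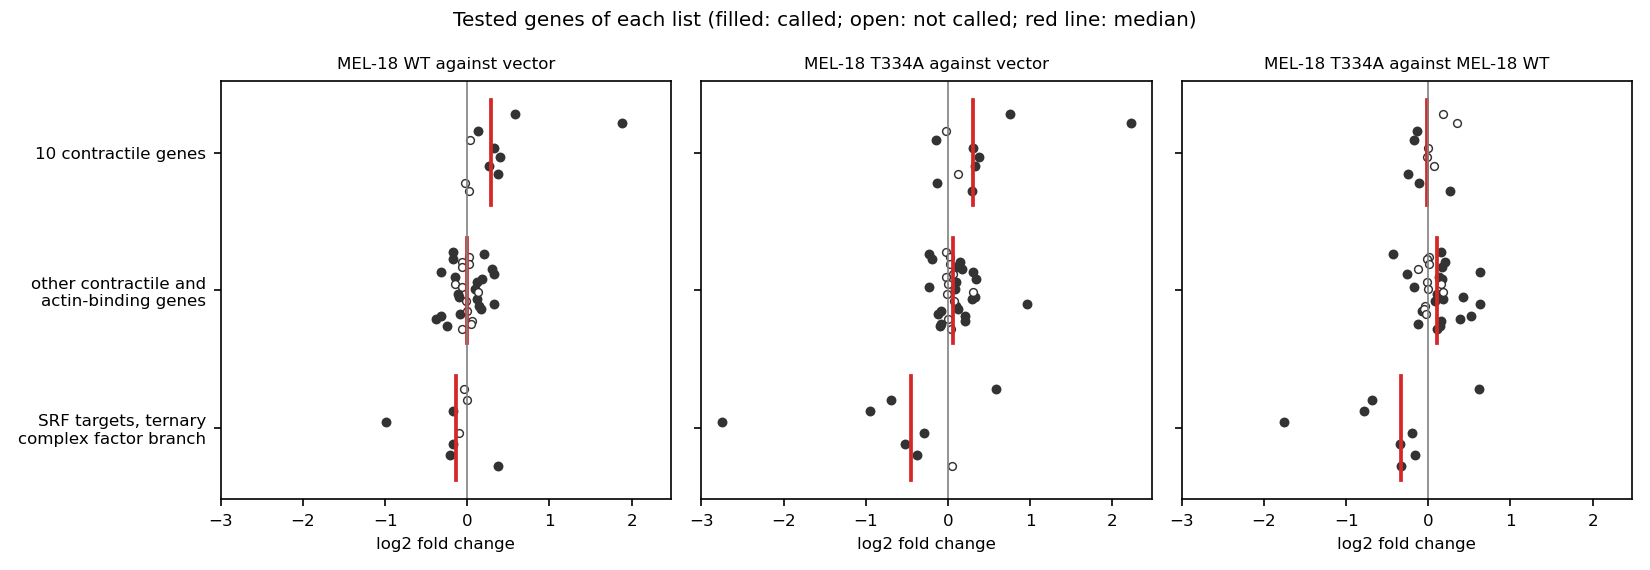
Log2 fold changes of the tested genes of the members and of the 2 other lists (points, filled where called) with the list median (red line) in the 3 comparisons. The members' medians are 0.29, 0.30 and -0.01, and those of the ternary complex factor targets -0.13, -0.45 and -0.34.

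The genes whose log2 CPM followed ACTA2 most closely over the 9 libraries were GABRE, HAPLN3 and TFCP2L1, with Pearson correlations of 0.971, 0.968 and 0.965 among 10776 genes compared. For TAGLN they were REXO2, HMOX2 and IMPDH2, at 0.981, 0.974 and 0.972. The 9 libraries form 3 groups and these values are a description.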

How the data were processed

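RNA of 9 cultures was sequenced, and raw gene counts were deposited by the authors for each library. Per the submitters' processing notes, CASAVA 1.8, STAR 2.5.3a and featureCounts (Subread 1.5.3) were used with hg19; which annotation and strand setting were used, and whether multi-mapped reads were counted, is not given in the sources used here. Here the counts were scaled by TMM, filtered with filterByExpr and tested over all 9 libraries with edgeR 4.0.16 (quasi-likelihood F test, two-sided), with Benjamini-Hochberg adjustment over 14738 genes and calls at adjusted p below 0.05. A standard error is the log2 fold change divided by the square root of F. The test was tried on simulated data. Intervals on summed counts are exact binomial and cover counting error only.

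The 95% intervals of the edgeR log2 values were about ±0.06 for members above 100 CPM, and the levels under 6 CPM are less certain. Levels per length used exons of protein-coding GENCODE 29 transcripts with a RefSeq match. Neighbours came from RefSeq gene order (GRCh38.p14), in which 97.7% of tested genes were placed. The CArG form with 1 departure was added after the sequences had been read. Protein sequences were not used here. Alternatives were RLE factors, library totals, DESeq2 1.42.0, no low-count filter, a minimum of 1 CPM in 3 libraries, only the 2 groups compared, a replicate block, and leaving out each library.

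The members and lists were chosen with earlier results of these data known. Text names all 10 members, PCGF2, SRF and its MRTF partners, and the 3 genes most like ACTA2 and TAGLN at 5 CPM or more. From the reported lists it names some of the called genes with the greatest absolute log2 change. Up to 4 per list and comparison, at a mean of at least 2 CPM, were eligible. SYNPO, MCL1 and JUNB were eligible and are not described above, and some eligible comparisons of other genes are also left out. FOS, FAS, AP3M1 and other overlapping or marker genes are given as context. One of the context lists is not reported here.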

Additional observations from a re-analysis of the deposited data

How the results depend on the processing

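Over 16 alternatives and 3 comparisons, 361 of 385 member values kept their direction and side of the threshold, 10 calls were lost, 4 were gained and 10 values changed sign, none of the last being a call. Lost and gained calls are named beside each gene above, apart from CNN1 with WT, whose call was lost with DESeq2 (adjusted p = 0.0595) and in edgeR without vector replicate 2 (0.0586) or WT replicate 3 (0.0716). The 10 genes had 5 to 7 higher and 0 lower with MEL-18 WT, and 2 lower with MEL-18 T334A, in every alternative; without CNN1, 4 to 6 were higher with WT and 5 to 6 with T334A. Members called higher with T334A against WT numbered 2 with library totals and 1 to 2 when 1 library was left out, against 1 in the main fit. Log2 values that changed sign with library totals were CNN2 (0.0212) and SRF (0.000499) with T334A against the vector, and TAGLN (0.00344) and MYL9 (0.00989) with T334A against WT. With 1 library left out, the range was -0.00330 to 0.0494 for VCL with WT, -0.0355 to 0.0121 for CNN2 with T334A against the vector, and -0.122 to 0.0734 for TAGLN and -0.0464 to 0.0655 for MYL9 with T334A against WT; the cause was not tested. CNN1 was left without a test by the minimum of 1 CPM and, against the vector, by the fits of the vector and 1 MEL-18 group alone. Replicate numbers did not pair the libraries: deviations of same-numbered libraries correlated at -0.0791 to 0.0137, and 0 of 9 libraries correlated best with their own number. With the replicate block the members' counts were 7 higher and 0 lower, 6 and 2, and 1 and 4 (without CNN1 6 and 0, 5 and 2, and 1 and 4), and all genes called were 1980 higher and 1983 lower with WT. The counts of CNN1 and ACTA2 limit what depth can show for them.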
